A study of Drosophila melanogaster with 16 samples.

Results

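The transcription factor genes vnd, ind, Dr, SoxN and D pattern the early neurectoderm of the fly, and their RNA was followed in whole Drosophila melanogaster embryos. They were taken from the deposited count table by their FlyBase symbols, and all 5 were found among its 17753 genes and passed the filter on low counts. Dr is also known as msh and D as Dichaete. In all, 4 genotypes were sampled at NC14 (nuclear cycle 14, embryonic stage 5) and at St7-8 (stages 7 to 8), which makes 8 groups of 2 libraries. Every group carried wm4h, an X chromosome inversion used to follow position effect variegation. The control was wm4h;+/+ and is called wm4h below. The mutants were wm4h;JasperSu113/JasperSu113 and wm4h;JasperSu140/JasperSu140, here Su113 and Su140, and wm4h homozygous for Su(var)3-906, here Su(var)3-9. Jasper encodes a chromatin cofactor with a PWWP domain, and the product of Su(var)3-9 methylates histones in heterochromatin. Eggs were collected over 1 h and aged for 2 h, both at 25 °C, and each library was made from a pool of 50 hand-sorted embryos, per the labels' protocols. The labels give this 1 protocol, which names NC14, for the St7-8 libraries as well.

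The ventrolateral side of the fly blastoderm gives rise to a neurectoderm that is divided into columns along the dorsoventral axis before neural stem cells leave it. Homeodomain repressors name these columns: vnd marks the ventral column, ind the intermediate column and Dr the dorsal column, and each column gives rise to neuroblasts of its own. The Dorsal gradient, epidermal growth factor (EGF) receptor signalling and Dpp signalling set the borders of the columns. SoxN and D encode group B Sox proteins, which bind DNA through an HMG domain and act with the column genes in neural fate. D is also expressed earlier, in a broad trunk domain of the blastoderm, where it takes part in segmentation.

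The genes lie on 4 chromosome arms, in dm6 coordinates. The vnd gene (FBgn0261930) lies on X from 582121 to 598151 on the plus strand, and spdi overlaps its span on the minus strand without sharing exonic bases. The ind gene (FBgn0025776) lies on 3L from 15042799 to 15043924 on the minus strand, as 1 exon inside the span of Sytbeta, which has the same strand and shares no exonic base with it. Dr (FBgn0000492) lies on 3R from 29556386 to 29565244 on the plus strand, 487 kb from Jasper. SoxN (FBgn0029123) lies on 2L from 8825645 to 8829670 on the plus strand. D (FBgn0000411) lies on 3L from 14175610 to 14178620 on the minus strand, in a Sox gene cluster with Sox21b at 44.3 kb and Sox21a at 67.5 kb.

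Library depth was 43466130 to 92790237 counts, and the 5 genes together took 0.0417 to 0.13% of them. A staging score was computed for each library as the mean log2 CPM (counts scaled by effective library size) of 12 later zygotic genes minus that of 7 early zygotic genes, so that a higher score is a later profile. At NC14 it was -2.98 and -2.78 in wm4h, -3.02 and -1.72 in Su(var)3-9, -5.81 and -5.59 in Su140, and -4.34 and -4.16 in Su113. At St7-8 it was -0.97 and -3.34 in wm4h, -1.30 and -1.05 in Su140, -2.02 and -2.58 in Su113, and 3.65 and 3.62 in Su(var)3-9. The library labelled wm4h St7-8 replicate 2 thus scored below both NC14 libraries of its genotype, which goes against its label. The groups also differed in score within a stage, so genotype and developmental age cannot be told apart by the design. Of 9 markers of older embryos, the muscle genes Mhc and Act57B stood at 447 and 417 CPM in Su113 St7-8 replicate 2 and at 412 and 392 CPM in Su140 St7-8 replicate 2. In Su113 St7-8 replicate 1 they were at 86.8 and 115 CPM, and in the 2 wm4h St7-8 libraries at 0.398 to 9.62 and 0.0928 to 8.80 CPM. The haemocyte gene Hml stood at 83.7 and 69.9 CPM in Su140 at St7-8, at 50.5 and 9.96 in Su(var)3-9 at St7-8, and at 0.196 to 2.84 CPM in the other 12 libraries. The marker nrv3 went the other way, at 76.4 and 138 CPM in wm4h at NC14 and 115 and 59.3 in wm4h at St7-8. In the mutants at St7-8 it was at 0.995 to 34.8 CPM. The summed level of these 9 markers was 83.1 to 415 CPM at NC14 and 188 to 1219 CPM at St7-8. Much of the sum in wm4h at NC14 was elav, at 327 and 256 CPM, so the sum does not measure older embryos alone. Eggshell and follicle cell markers summed to 0.518 to 2.25 CPM, with 4 to 9 of 13 at 0. In whole-embryo RNA, fewer cells of a type and less RNA per cell cannot be told apart.

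**Figure D1:**
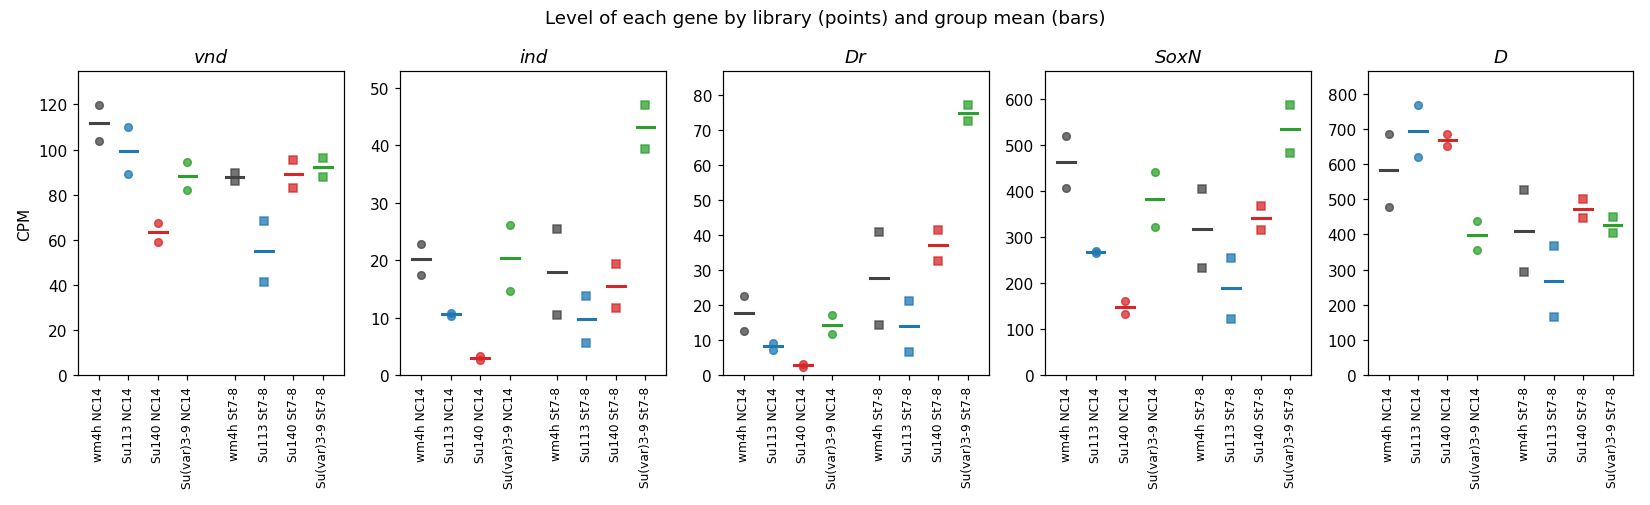
Level of each gene in CPM (linear axis from 0) in the 8 groups, with 1 point per library and a bar for the mean of 2. The Su140 NC14 libraries are the lowest of the NC14 libraries for vnd, ind, Dr and SoxN, and the Su(var)3-9 St7-8 libraries are the highest of all 16 for ind and Dr.

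Per kilobase of exon, D and SoxN were the most abundant of the 5 genes and Dr the least in wm4h at NC14. The mean there was 198 ± 50.1 CPM per kb for D, 115 ± 20.2 for SoxN, 25.9 ± 2.62 for vnd, 17.9 ± 3.36 for ind and 6.93 ± 2.79 for Dr (SD, n = 2). The order was not the same in every group. In Su(var)3-9 at St7-8, Dr at 29.3 ± 1.31 and ind at 38.4 ± 4.82 CPM per kb both stood above vnd at 21.3 ± 1.37.

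The ventral column gene vnd varied least between the groups. Its lowest group mean was 55.0 ± 19.0 CPM in Su113 at St7-8 and its highest 112 ± 11.3 CPM in wm4h at NC14 (SD, n = 2). Neighbouring groups in the order of means overlapped, except that wm4h St7-8, at 86.1 and 89.8 CPM, lay above Su140 NC14, at 59.1 and 67.5 CPM. The intermediate column gene ind ran from 3.01 ± 0.446 CPM in Su140 at NC14 to 43.2 ± 5.43 CPM in Su(var)3-9 at St7-8. Dr ran between the same groups, from 2.87 ± 0.691 to 74.9 ± 3.35 CPM. For ind and Dr the highest group lay clear of the next, and so did the lowest. SoxN ran from 147 ± 19.7 to 535 ± 74.2 CPM, again between the same groups, but its highest and lowest groups each overlapped a neighbour in the order. D had another order. Its highest mean was 694 ± 106 CPM in Su113 at NC14, its lowest was 267 ± 142 CPM in Su113 at St7-8, and each group overlapped the next throughout.

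At NC14 the 3 column genes and SoxN were lower in Su140 than in the control, while D did not pass the test. This was the only one of the 6 mutant comparisons in which any of the 5 genes passed the test, and these were the only 4 of 30 pairs of a gene and a mutant comparison past the threshold (adjusted p under 0.05). Of all 12398 genes tested, 6.53% were lower past the threshold in this comparison and 9.56% passed in either direction.

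The ind gene stood at 22.9 and 17.5 CPM in the 2 wm4h libraries, at 3.32 and 2.69 in Su140, at 10.4 and 10.8 in Su113, and at 14.8 and 26.1 in Su(var)3-9. The 2 Su140 libraries were the lowest of the 8, and the 2 Su113 libraries came next. The log2 fold change of Su140 against wm4h was -2.75 ± 0.50 (SE, n = 2), a 6.70-fold lower level, with an adjusted p of 0.00955 by the quasi-likelihood test of edgeR.

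For Dr the NC14 values were 12.7 and 22.7 CPM in wm4h, 2.38 and 3.35 in Su140, 9.27 and 7.22 in Su113, and 11.8 and 17.1 in Su(var)3-9. The Su140 libraries were again below all others. The log2 fold change in Su140 was -2.62 ± 0.57 (6.16-fold lower, adjusted p = 0.0173).

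SoxN stood at 521 and 406 CPM in wm4h, 161 and 133 in Su140, 270 and 266 in Su113, and 322 and 442 in Su(var)3-9. The order of the genotypes was the one seen for Dr, with Su140 at the bottom and Su113 next. In Su140 the log2 fold change was -1.65 ± 0.33 (3.14-fold lower, adjusted p = 0.0132).

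The ventral gene vnd stood at 104 and 120 CPM in wm4h, 59.1 and 67.5 in Su140, 110 and 89.1 in Su113, and 82.0 and 94.4 in Su(var)3-9. Su140 alone lay apart from all other NC14 libraries. Its log2 fold change was the smallest of the 4, at -0.82 ± 0.22 (1.77-fold lower, adjusted p = 0.0354).

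D stood at 478 and 686 CPM in wm4h, 687 and 650 in Su140, 768 and 619 in Su113, and 439 and 356 in Su(var)3-9. The Su140 and Su113 libraries overlapped the control, and the Su(var)3-9 libraries lay below it, as they did for vnd and for 22% of all genes. The log2 fold change was 0.20 ± 0.34 in Su140 (adjusted p = 0.750), while it was 0.25 ± 0.34 in Su113 (adjusted p = 0.801) and -0.55 ± 0.34 in the Su(var)3-9 mutant (adjusted p = 0.495).

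All 4 genes that fell in Su140 had both libraries below both controls, as 30.2% of all genes did. Their calls were lost in some of the fits that left out 1 library. Without wm4h NC14 replicate 1, only Dr passed (-2.98, adjusted p = 0.0426). Without wm4h NC14 replicate 2, ind (-2.93, adjusted p = 0.0211) and SoxN (-1.82, adjusted p = 0.0263) passed. None passed without one or the other Su140 library, where adjusted p was 0.0739 to 0.198, and the log2 fold changes over all 4 omissions were -2.93 to -2.54 for ind, -2.98 to -2.14 for Dr, -1.82 to -1.46 for SoxN and -0.92 to -0.71 for vnd. The staging score of the Su140 NC14 libraries was the lowest of the 16. With the score as a covariate the log2 fold changes were -1.12 for ind, -0.71 for Dr, -0.62 for SoxN and -0.50 for vnd. None of these 4 passed (adjusted p = 0.654 to 0.851) in that fit, where 0.177% of all genes did. The slope of the score came only from differences within groups, with an SD of 0.153 in Su140 NC14 and 0.143 in wm4h NC14. The mean scores of these groups were -5.70 and -2.88, so the fit could not tell the score from the genotype here.

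**Figure D2:**
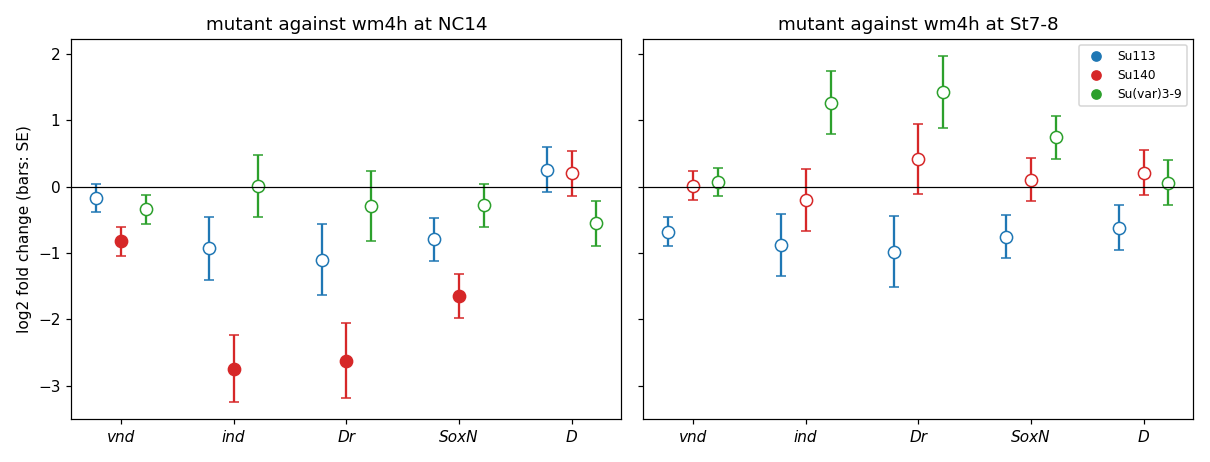
Log2 fold change of each gene in each mutant against wm4h at NC14 and at St7-8, with its SE; filled points have an adjusted p under 0.05. Filled points are found in Su140 at NC14 alone, for vnd, ind, Dr and SoxN, at -0.82 to -2.75.

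In the other mutants at NC14 no gene of the 5 passed the test. Su113 lay on the same side as Su140 for ind (-0.93 ± 0.47, adjusted p = 0.403), Dr (-1.10 ± 0.54, adjusted p = 0.385) and SoxN (-0.79 ± 0.33, adjusted p = 0.295), each with both libraries below both controls, as for 27.3% of all genes. Both mutants were set against the same wm4h libraries. In Su113, 0.936% of all genes passed, SoxN had an unadjusted p under 0.05 as did 14.2% of all genes, and DESeq2 also called 0 of the 5 (7.6% of all genes). In Su(var)3-9, 0.331% of all genes passed, none of the 5 had an unadjusted p under 0.05 against 14.4% of all genes, and DESeq2 called 0 (7.52% of all genes). The Su(var)3-9 log2 fold changes were -0.55 ± 0.34 for D, -0.34 ± 0.21 for vnd, -0.29 ± 0.53 for Dr, -0.28 ± 0.32 for SoxN and 0.02 ± 0.47 for ind.

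The 2 Jasper alleles were compared directly. At NC14 vnd, ind, Dr and SoxN were above Su140 in both Su113 libraries, by 0.65 ± 0.22, 1.81 ± 0.49, 1.52 ± 0.55 and 0.86 ± 0.33 on the log2 scale. Of all genes 33.5% had both Su113 libraries above both Su140 libraries. None passed, with ind nearest (adjusted p = 0.0635), against 3.08% of all genes. All 4 had an unadjusted p under 0.05 (22.2% of all genes did), DESeq2 called 3 (17.1% of all genes), and a fit of the NC14 libraries alone called 4 (15.4% of all genes). At St7-8 the difference lay the other way. There both Su113 libraries were below both Su140 libraries for vnd (-0.69 ± 0.22), Dr (-1.39 ± 0.54), SoxN (-0.86 ± 0.33) and D (-0.83 ± 0.34), as for 23.8% of all genes. None passed (adjusted p = 0.116 to 0.221), against 2.4% of all genes, 4 had an unadjusted p under 0.05 (18.5% of all genes did), and DESeq2 called 1 (12.7% of all genes). Without Su113 replicate 1 these 4 genes stood at -1.11 (vnd), -2.45 (Dr), -1.48 (SoxN) and -1.52 (D). Without Su113 replicate 2 they stood at -0.38, -0.79, -0.42 and -0.36. The fit without replicate 1 made calls that the fit of all 16 libraries did not make.

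At St7-8 the values of ind, Dr and SoxN were highest in Su(var)3-9. In the fit of all 16 libraries, however, no gene of the 5 passed the test against wm4h at this stage. There ind stood at 25.4 and 10.5 CPM in wm4h and at 39.4 and 47.1 in Su(var)3-9 (1.27 ± 0.47, adjusted p = 0.0710). Dr stood at 41.0 and 14.5 CPM in wm4h and at 72.5 and 77.2 in Su(var)3-9 (1.43 ± 0.54, adjusted p = 0.0724). SoxN stood at 404 and 233 CPM in wm4h and at 483 and 588 in Su(var)3-9 (0.75 ± 0.33, adjusted p = 0.116). For each of these genes both mutant libraries lay above both controls, as for 33.9% of all genes. In this comparison 24.8% of all genes passed, 3 of the 5 genes and 37% of all genes had an unadjusted p under 0.05, and DESeq2 called ind and Dr (34.8% of all genes). The levels of vnd, at 89.8 and 86.1 CPM in wm4h and 88.0 and 96.3 in the mutant, overlapped (0.07 ± 0.21, adjusted p = 0.847). So did those of D, at 294 and 525 CPM in wm4h and 405 and 451 in the mutant (0.06 ± 0.34, adjusted p = 0.915).

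The 2 control libraries at St7-8 differed 2.41-fold for ind and 2.84-fold for Dr, and the library with the lower levels was replicate 2, the one whose score goes against its label. Without wm4h replicate 2, the log2 fold changes in Su(var)3-9 were 0.76 for ind, 0.86 for Dr and 0.40 for SoxN. Without wm4h replicate 1, they were 2.03, 2.37 and 1.19, and calls appeared that the fit of all 16 libraries did not make. The Su(var)3-9 St7-8 libraries had the highest staging scores of the 16. With the score as a covariate the direction turned, to -1.93 for ind, -2.29 for Dr and -1.32 for SoxN (adjusted p = 0.927). In that fit 0 of all 12398 genes passed. Its slope came only from score differences within groups, with an SD of 1.67 in wm4h St7-8 and 0.0167 in Su(var)3-9 St7-8. The fit thus could not tell the score from the genotype here.

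In the Jasper mutants at St7-8 no gene of the 5 passed either in the fit of all 16 libraries. Su113 replicates 1 and 2 stood at 68.5 and 41.5 CPM for vnd, 13.8 and 5.64 for ind, 21.3 and 6.80 for Dr, 254 and 123 for SoxN, and 367 and 166 for D. Replicate 2 was the lowest St7-8 library for every gene. Of the 5 genes vnd alone had both Su113 libraries below both controls (-0.68 ± 0.22, adjusted p = 0.106), as did 26.6% of all genes, and 2.85% of all genes passed. Both vnd and SoxN had an unadjusted p under 0.05 (25.5% of all genes did), and DESeq2 called 0 (12.1% of all genes). Calls that the fit of all 16 libraries did not make appeared without Su113 replicate 1. There vnd stood at -1.09, SoxN at -1.38, D at -1.32 and Dr at -2.04. Without replicate 2 the values were -0.24 to 0.01, and replicate 2 is the library with the highest Mhc and Act57B levels. Replicate 1 also had both above the controls, and their part in the result was not tested.

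Su140 at St7-8 stood at 82.9 and 95.3 CPM for vnd, 19.4 and 11.8 for ind, 41.6 and 32.5 for Dr, 368 and 317 for SoxN, and 500 and 447 for D. These values overlapped the control for all 5 genes. The log2 fold changes were -0.20 ± 0.47 for ind, 0.02 ± 0.21 for vnd, 0.10 ± 0.32 for SoxN, 0.21 ± 0.34 for D and 0.42 ± 0.53 for Dr. No gene of the 5 had an unadjusted p under 0.05 (18.3% of all genes did), DESeq2 called 0 (8.27% of all genes), and 1.15% of all genes passed. Without wm4h replicate 2, ind was at -0.71, SoxN at -0.24 and Dr at -0.15, and without wm4h replicate 1 they were at 0.56, 0.55 and 1.35. None of these passed.

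The genes past the threshold from NC14 to St7-8 were not the same ones in each of the 4 genotypes. In wm4h none passed, and neither did any other of the 12398 genes, 0% in all, by edgeR (1395 genes, or 11.3%, had an unadjusted p under 0.05, and DESeq2 called 452, or 4.52%). There Dr was at 0.65 ± 0.53, and ind, vnd, D and SoxN lay between -0.54 and -0.17. None of the 5 had an unadjusted p under 0.05, and DESeq2 called 0 of them. Without wm4h St7-8 replicate 2, Dr was at 1.22 and D at -0.98 (adjusted p = 0.302 and 0.255).

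In Su140, Dr rose from 2.38 and 3.35 CPM at NC14 to 41.6 and 32.5 at St7-8, or 12.9-fold (3.69 ± 0.59, adjusted p = 0.00279). With it rose ind (2.37 ± 0.50, adjusted p = 0.00839) and SoxN (1.22 ± 0.33, adjusted p = 0.0196). All Su140 libraries of St7-8 lay above those of NC14 for these genes and for vnd (0.49 ± 0.21, adjusted p = 0.0920), while those of D lay below (-0.50 ± 0.34, adjusted p = 0.260). Of all genes 33.7% lay above and 36.6% below in this way. In this comparison 33.6% of all genes passed and 17.6% rose. For vnd a call appeared with other scalings, other filters and DESeq2. Dr passed in each fit that left out 1 of the 4 Su140 libraries (3.46 to 4.04, adjusted p of 0.0431 at most). For ind the call was lost without one or the other NC14 library (adjusted p = 0.0551 and 0.0658). SoxN passed without Su140 St7-8 replicate 1 alone, and without the others its adjusted p was 0.0629 to 0.108. With the staging score as a covariate none of the 3 passed, in a fit where 0% of all genes did, and Dr stood at 0.65, ind at -0.22 and SoxN at -0.44. Hml went from 2.84 and 2.45 to 83.7 and 69.9 CPM between the same libraries, and its part in the result was not tested.

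In Su113 the genes that changed were vnd and D, and both fell. D went from 768 and 619 CPM at NC14 to 367 and 166 at St7-8 (-1.38 ± 0.35, adjusted p = 0.0210). The vnd level went from 110 and 89.1 CPM to 68.5 and 41.5 (-0.85 ± 0.22, adjusted p = 0.0217). In Su113, 21.8% of all genes passed and 9.67% fell. Without St7-8 replicate 2 the changes were -0.78 for D and -0.40 for vnd (adjusted p = 0.176 and 0.275), and without replicate 1 they were -2.07 and -1.27 (adjusted p = 0.00310 and 0.00265). The calls were also lost without one or the other NC14 library (adjusted p = 0.0724 to 0.238), and with the score as a covariate (D -0.90, vnd -1.08, adjusted p = 0.273 and 0.0684). In Su(var)3-9, Dr rose from 11.8 and 17.1 to 72.5 and 77.2 CPM (2.37 ± 0.56, adjusted p = 0.0109), where 22.9% of all genes passed and 10% rose. This call was not kept without the NC14 replicate 1 of that genotype (2.09). With the score as a covariate the direction turned (-1.67, adjusted p = 0.791), in a fit where 0% of all genes passed. The libraries of ind and SoxN did not overlap between the stages either, at 1.08 ± 0.47 and 0.49 ± 0.32 (adjusted p = 0.122 and 0.310), and 35.1% of all genes lay above in the same way.

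The stage change was then compared between the Jasper alleles, in a contrast added after the values had been seen. The like contrasts of Su113 and of Su140 with Su(var)3-9, added with it, passed for none of the 5 genes. There 6.33% and 0.234% of all genes passed. The change in Su113 minus that in Su140 was -1.35 ± 0.30 for vnd (adjusted p = 0.0301), -2.49 ± 0.68 for ind (adjusted p = 0.0486), -2.92 ± 0.77 for Dr (adjusted p = 0.0454) and -1.72 ± 0.46 for SoxN (adjusted p = 0.0472) on the log2 scale. For D the difference was -0.88 ± 0.48 (adjusted p = 0.300). In this contrast 6.84% of all genes passed and 3.57% were lower. All 4 calls were lost in at least 6 of the 8 fits that left out 1 library of the alleles, Su113 St7-8 replicate 2 and each of the Su140 NC14 libraries among them. The change of a mutant's effect against wm4h from NC14 to St7-8 passed for none of the 5 genes by edgeR. In Su113 and Su(var)3-9, 0.0887% and 1.84% of all genes passed, 0 and 2 of the 5 genes had an unadjusted p under 0.05 (17.8% and 16.8% of all genes), and DESeq2 called 0 (8.44% and 11.5% of all genes). In Su140 it was 3.04 ± 0.77 for Dr, 2.54 ± 0.68 for ind and 1.76 ± 0.46 for SoxN (adjusted p = 0.0712 to 0.0772). There 0.274% of all genes passed, 4 of the 5 genes and 27.4% of all genes had an unadjusted p under 0.05, and DESeq2 called 4 (17.9% of all genes).

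**Figure D3:**
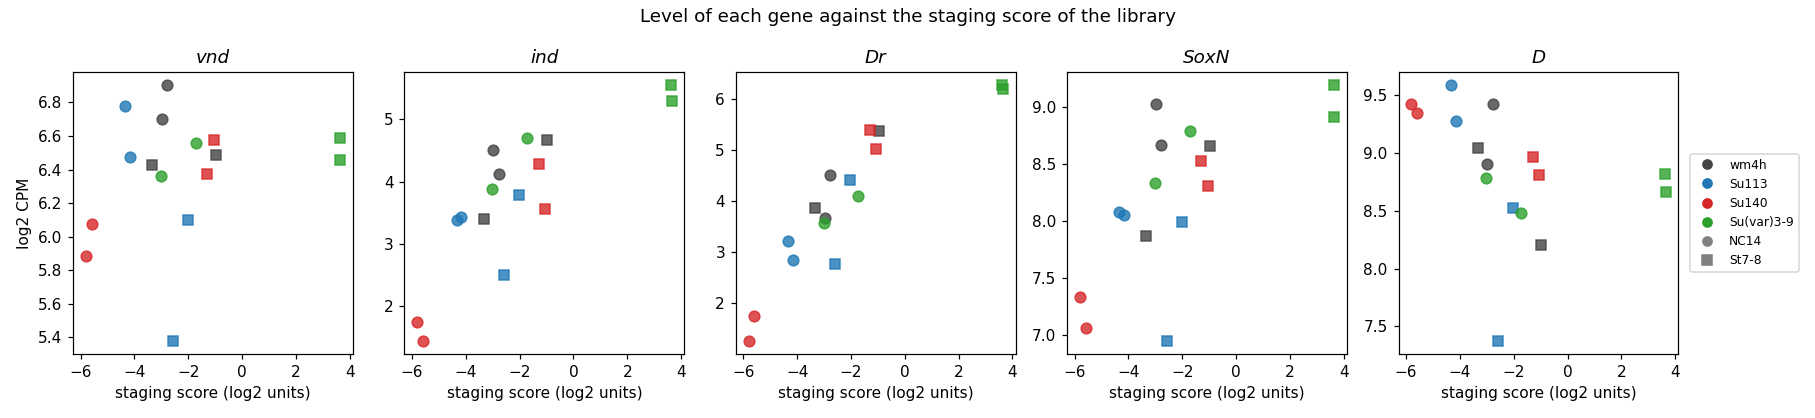
Level of each gene in log2 CPM against the staging score of the library (difference of mean log2 CPM), 1 point per library, marked by stage and genotype. Values of ind, Dr and SoxN are higher in libraries of higher score within both stages, while D is lower at higher scores within NC14.

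Ordered by the staging score, the 8 NC14 libraries had ind and SoxN levels that were higher, with few exceptions, at higher scores. Over these 8 libraries Pearson's r between the score and log2 CPM was 0.95 for ind, 0.93 for Dr, 0.92 for SoxN, 0.70 for vnd and -0.72 for D. Over the 8 St7-8 libraries it was 0.87, 0.83, 0.79, 0.45 and 0.23 in the same order. The points share genotype and library, so these values describe the 16 libraries and carry no test.

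**Figure D4:**
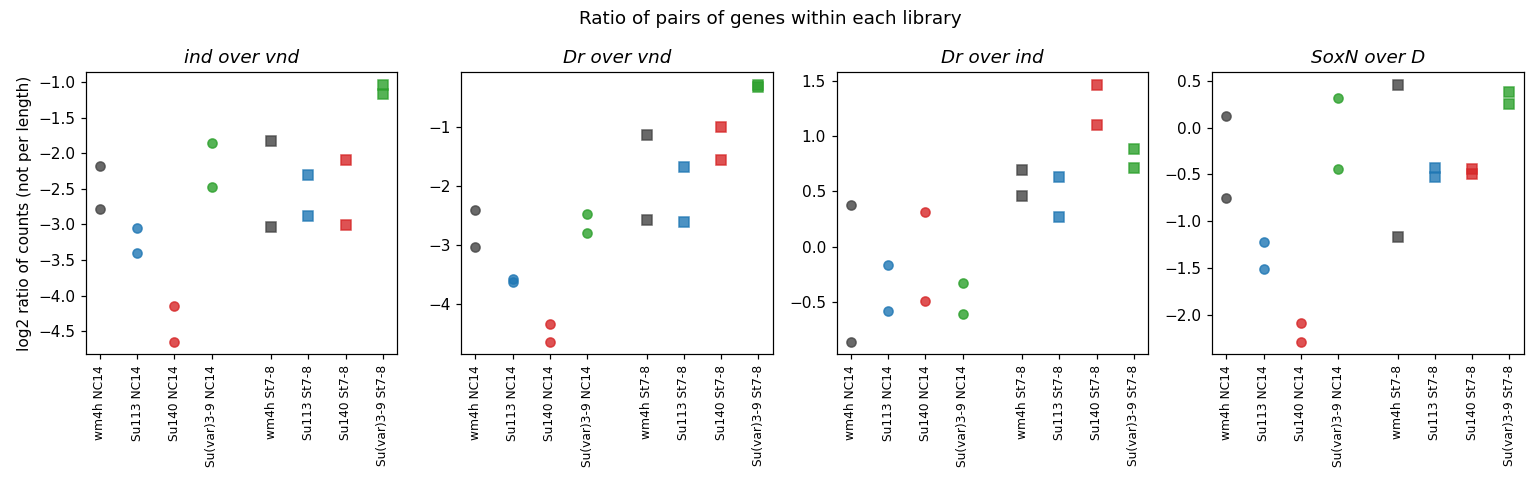
Log2 ratio of the counts of 2 of the genes within each library, by group; the ratios are not corrected for gene length and are compared between groups only. Dr over ind is higher at St7-8 than at NC14 within each genotype, and SoxN over D is lowest in Su140 at NC14.

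Ratios of 2 genes within a library do not depend on the scaling of that library. The ratio of the dorsal gene to the intermediate one was higher at St7-8. The count of Dr over that of ind was 0.554 to 1.30 in the 8 NC14 libraries and 1.20 to 2.76 in the 8 St7-8 libraries, and within each genotype both St7-8 libraries lay above both NC14 libraries. Within NC14, ind and Dr were both low against vnd in Su140. There Dr over vnd was 0.0402 and 0.0497, against 0.122 and 0.189 in wm4h, 0.0843 and 0.0810 in Su113, and 0.144 and 0.181 in Su(var)3-9. The ratio of ind over vnd was 0.0562 and 0.0399 in Su140 and 0.220 and 0.146 in wm4h. The 2 Sox genes parted as well. SoxN over D was 0.235 and 0.205 in Su140 at NC14, 0.351 and 0.430 in Su113, 1.09 and 0.592 in wm4h, and 0.734 and 1.24 in Su(var)3-9. The Jasper alleles thus had the 4 lowest NC14 ratios.

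Across the 16 libraries ind and SoxN had the highest correlation of log2 CPM among the 5 genes (r = 0.94), and ind and Dr came next (r = 0.89). D stood apart from them, with r of 0.05 with SoxN, -0.20 with ind and -0.26 with Dr, but 0.53 with vnd. Among 6081 genes with a mean log2 CPM of at least 3, the genes with the pattern most like that of ind were dan (r = 0.98), trn (0.98) and Zfrp8 (0.98). For Dr they were wgn (0.99), Toll-6 (0.99) and gsb (0.99), and Toll-6 and gsb are among the later genes of the staging score. For SoxN they were l(3)neo38, Brd and nkd (each 0.98). For vnd they were Myo95E (0.93), neur (0.93) and ph-p (0.92). For D the most alike was the gap gene Kr (0.95), followed by Ppa (0.90) and Notum (0.89).

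Genes of the pathways around the columns were then counted in Su140 at NC14, whose libraries had the lowest staging scores, and where 6.53% of all genes fell. Of 16 EGF receptor pathway genes 8 fell and none rose, with a median log2 fold change of -0.78 against -0.03 over all genes. The inhibitor kek1 fell from 42.8 ± 0.356 to 7.49 ± 0.397 CPM (SD, n = 2; -2.51 ± 0.37, adjusted p = 0.00348). The ligand gene vn (-1.48 ± 0.28, adjusted p = 0.0106) and the inhibitor sty (-2.15 ± 0.41, adjusted p = 0.0111) fell too. Of 13 dorsoventral inputs 2 fell, namely rho, a protease that releases EGF ligands and is counted in both lists (-1.03 ± 0.24, adjusted p = 0.0223), and brk, a repressor of Dpp targets, from 255 ± 4.01 to 127 ± 2.45 CPM (adjusted p = 0.0261). Their list had a median of 0.10.

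Of 19 neuroblast and proneural genes tested 6 fell in Su140, with a median of -0.32, beside the same 6.53% of all genes. The neural differentiation gene pros fell from 340 ± 54.2 to 105 ± 5.41 CPM (-1.69 ± 0.33, adjusted p = 0.0113). The neuronal gene elav (-1.77 ± 0.38, adjusted p = 0.0173) and the POU gene pdm2 (-1.49 ± 0.38, adjusted p = 0.0313) fell as well. Of 11 other Sox and POU genes 3 fell (median -1.14). These were pdm2 again, Sox14 (-1.53 ± 0.37, adjusted p = 0.0253) and acj6, which stood at 0.0855 ± 0.0110 CPM in Su140 and 1.98 ± 1.45 CPM in wm4h (adjusted p = 0.0105). Of 16 genes tested of territories that flank the neurectoderm 10 fell, with the amnioserosa gene peb at -2.68 ± 0.45 (adjusted p = 0.00635), ush at -2.28 ± 0.47 (adjusted p = 0.0146) and Doc2 at -1.83 ± 0.39 (adjusted p = 0.0167). The flanking genes peb, how and tup also count in the staging score, and elav in the older-embryo markers. In the fit with that score as a covariate 0.177% of all genes passed. Without any 1 of the 4 libraries the counts were at most 4 in the EGF list and 2 in each of the others, and with the score as a covariate each was 0.

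In Su113 and Su(var)3-9 at NC14, none of these lists had a gene past the threshold, except acj6 in Su113 (0.0509 ± 0.0318 CPM, adjusted p = 0.0195), whose call was kept without wm4h replicate 2 and lost without each of the other 3 libraries (adjusted p = 0.132 to 0.279). Over all genes 1762 had an unadjusted p under 0.05 in Su113 and 1790 in Su(var)3-9, and DESeq2 called 796 and 788. The neighbours of D in the Sox cluster passed the test at St7-8 in different mutants, and D itself passed in neither. Of all genes 1.15% passed there in Su140 and 24.8% in Su(var)3-9. Sox21b rose in Su140 from 0.410 ± 0.0389 to 3.17 ± 0.628 CPM (2.95 ± 0.56, adjusted p = 0.0305), and Sox21a rose in Su(var)3-9 from 3.83 ± 1.31 to 18.1 ± 0.0382 CPM (2.24 ± 0.76, adjusted p = 0.0493). The POU gene vvl, a partner of D in the midline, rose in Su140 from 6.13 ± 1.15 to 52.3 ± 10.3 CPM (3.09 ± 0.63, adjusted p = 0.0419). Without any 1 of the 4 libraries the Sox21a call was lost (adjusted p = 0.0922 to 0.299). Those of Sox21b and vvl were kept without Su140 replicate 1 and lost without each of the other 3 libraries (adjusted p = 0.0737 to 0.262 and 0.0909 to 0.307). Both were also lost with the replicate block, with the score as a covariate and with the St7-8 libraries alone (Sox21b adjusted p = 0.0547 to 0.221, vvl 0.0655 to 0.264). Sox21a was lost with the block (adjusted p = 0.0672) and turned with the covariate (-0.57).

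Among the Su(var)3-9 libraries at St7-8, where ind, Dr and SoxN stood above the controls, 7 of 13 dorsoventral inputs fell, in a comparison where 15.9% of all genes fell and 8.94% rose. The BMP ligand gene scw fell from 146 ± 95.7 to 4.38 ± 1.03 CPM (-5.06 ± 0.49, adjusted p = 0.000204). The receptor gene Tl (-2.24 ± 0.28, adjusted p = 0.000473) and tsg (-2.70 ± 0.35, adjusted p = 0.000480) fell too. The EGF list had 4 genes lower, led by kek1 (-3.54 ± 0.39, adjusted p = 0.000303), and 2 higher. In the neuroblast list 3 fell, hb (-2.10 ± 0.27, adjusted p = 0.000480) and dpn (-1.44 ± 0.30, adjusted p = 0.00555) among them, and insc, which orients neuroblast divisions, rose (1.53 ± 0.31, adjusted p = 0.00519). Of the flanking genes 4 rose, with Doc2 at 1.69 ± 0.39 (adjusted p = 0.00928), the mesoderm gene Mef2 at 1.10 ± 0.31 (adjusted p = 0.0214) and pnr at 1.54 ± 0.47 (adjusted p = 0.0328). With the score as a covariate no gene of these lists passed, and neither did any other gene (0% of 12398). Leaving out any 1 library kept the calls of scw, Tl, tsg, kek1 and hb, while those of dpn, insc, Doc2, Mef2 and pnr were each lost without wm4h replicate 2 (-0.97, 1.22, 1.20, 0.66 and 1.15, adjusted p = 0.0724 to 0.273). Those of Mef2 and pnr were also lost without one or the other Su(var)3-9 library (adjusted p = 0.0743 to 0.115), and that of Doc2 without replicate 2 (adjusted p = 0.0502). With the St7-8 libraries alone dpn, Doc2, Mef2 and pnr did not pass (adjusted p = 0.0512 to 0.0866).

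In the Jasper alleles at St7-8 kek1 was lower in both, at -2.52 ± 0.37 in Su140 (adjusted p = 0.00998) and -1.62 ± 0.36 in Su113 (adjusted p = 0.0394), against the same controls. In Su113 the receptor gene Egfr (-0.92 ± 0.21, adjusted p = 0.0424) and the proneural gene l(1)sc (-1.15 ± 0.28, adjusted p = 0.0497) fell as well. Without Su113 replicate 2, Egfr stood at -0.41, l(1)sc at -0.67 and kek1 at -1.40, and none passed (adjusted p = 0.296 to 0.391). Without one or the other wm4h library these 3 Su113 calls were lost as well (adjusted p = 0.0515 to 0.214). The kek1 call in Su140 was lost without wm4h replicate 2 alone (-2.28, adjusted p = 0.0798) among these fits. All 3 Su113 calls were also lost with RLE and upper-quartile scaling and with the 1 CPM filter (adjusted p = 0.0526 to 0.105), and with the St7-8 libraries alone (adjusted p = 0.279 to 0.310). The Egfr call was lost with the replicate block too (adjusted p = 0.0651), and that of kek1 in Su140 with the St7-8 libraries alone (adjusted p = 0.264). In a fit without replicates 2 of both wm4h and Su113 at St7-8, the kek1 calls in both alleles and those of Egfr, l(1)sc, Sox21b, vvl, Sox21a, insc, Mef2 and pnr were lost (adjusted p = 0.0644 to 0.645).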

How the data were processed

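The 16 libraries were made with a stranded total RNA kit, per the labels' protocols. Values are raw counts for each gene as deposited by the authors, and no normalization had been applied. The submitters' processing notes name dm6 and DESeq2. No aligner, counter, strand setting or annotation release is given in the sources used here, so reads of overlapping genes cannot be told apart. Symbols and coordinates came from an Ensembl annotation, which matched 17626 of 17753 identifiers.

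Genes were filtered with filterByExpr (12398 tested), scaled by TMM and fitted with edgeR 4.0.16 (R 4.3.3, limma 3.58.1) as 8 group means, with 8 residual degrees of freedom. Quasi-likelihood tests were two-sided, with Benjamini-Hochberg adjustment over all genes tested and a threshold of 0.05, and give every adjusted p printed without a tool. The prior count for log2 CPM was 2. Fold changes carry an SE derived as the absolute log2 fold change over the square root of the test's F statistic, levels the SD. Labels do not say that replicate pools came from separate collections, so p-values reflect a spread between pools that may be technical. All groups shared 1 estimate of the spread, although log2 CPM of replicates differed by an SD of 0.57 to 0.85 at NC14 and of 0.92 to 1.55 at St7-8. The code was tested on simulated data.

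All 5 genes are given in every comparison, and up to 3 genes by adjusted p are named from each list. The genes and lists were chosen with earlier results of these data known. Alternatives were RLE and upper-quartile scaling, other filters, DESeq2 1.42.0 (shares are of genes it gave an adjusted p), a replicate block, each library left out, the libraries of 1 stage alone and the staging score as a covariate. The slope of that covariate came only from score differences between libraries of the same group. The contrasts of stage changes between mutants, and the fit without replicates 2 of wm4h and Su113 at St7-8, were added after the data were seen.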

Additional observations from a re-analysis of the deposited data

Results flagged for a closer look

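The stage change from NC14 to St7-8 differed between the Jasper alleles for 4 of the 5 genes, by the contrast of the 2 changes in edgeR. The change in Su113 minus that in Su140 was -1.35 for vnd, -2.49 for ind, -2.92 for Dr and -1.72 for SoxN on the log2 scale (adjusted p = 0.0301, 0.0486, 0.0454 and 0.0472). Of all genes 6.84% passed in this contrast and 3.57% were lower. In the 8 fits that each left out 1 library, vnd passed in 2 and ind, Dr and SoxN in 1 each. The staging score went from -4.25 ± 0.13 to -2.30 ± 0.39 in Su113 and from -5.70 ± 0.15 to -1.18 ± 0.17 in Su140 (SD, n = 2). Its part in the difference was not tested beyond the fit with the score as a covariate, in which 0 of all 12398 genes passed.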

How the results depend on the processing

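With any single library left out, a group kept a single library. Calls among the 5 genes and over all genes were then gained in some fits and lost in others. In Su113 at St7-8 the log2 fold changes ran from -1.09 to -0.21 for vnd, -1.68 to -0.12 for ind, -2.04 to -0.044 for Dr and -1.38 to -0.18 for SoxN. In Su(var)3-9 at St7-8 they ran from 0.76 to 2.03 for ind, 0.86 to 2.37 for Dr and 0.40 to 1.19 for SoxN. The stage change in Su113 minus that in Su140 ran from -1.76 to -1.03 for vnd, -3.28 to -1.97 for ind, -3.97 to -2.31 for Dr and -2.34 to -1.28 for SoxN.

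Several differences that did not pass changed sign on leaving out a library. At NC14, D ran from -0.0349 to 0.48 in Su140 and from -0.087 to 0.20 between the alleles, and in Su(var)3-9 ind ran from -0.45 to 0.35 and Dr from -0.65 to 0.19. At St7-8 in Su140, vnd ran from -0.090 to 0.28, ind from -0.71 to 0.56, Dr from -0.15 to 1.35, SoxN from -0.24 to 0.55 and D from -0.16 to 0.68. In Su(var)3-9, vnd ran from -0.031 to 0.12 and D from -0.30 to 0.54, and in Su113 D ran from -1.32 to 0.0062. For the stage change, ind ran from -0.94 to 0.33 and Dr from -0.29 to 1.22 in wm4h. In Su113, ind ran from -0.91 to 0.52, Dr from -0.29 to 1.51 and SoxN from -1.13 to 0.066. In Su(var)3-9, vnd ran from -0.072 to 0.17 and D from -0.037 to 0.23. The change of the Su140 effect on D ran from -0.36 to 0.48.

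With the staging score as a covariate 0 of the 5 genes passed for Su140 at NC14, where 0.177% of all genes did. None passed for the stage change in Su113 (2.62% of all genes), Su140 or Su(var)3-9 (0% each). The same held for the stage change in Su113 minus that in Su140 (0% of all genes). D at NC14 then stood at -0.069 in Su113 and -0.45 in Su140, and ind at -0.34 in Su(var)3-9. At St7-8, Su140 stood at -0.096 for vnd, -0.046 for Dr and -0.20 for SoxN, and Su(var)3-9 at -0.59 for vnd, -1.93 for ind, -2.29 for Dr and -1.32 for SoxN. There hb stood at 0.046, Sox21a at -0.57, Doc2 at -1.19, Mef2 at -0.78 and pnr at -1.29. The stage change of Dr was -0.011 in wm4h and -0.64 in Su113. In Su140 it was -0.018 for vnd, -0.22 for ind, -0.44 for SoxN and 0.54 for D, and in Su(var)3-9 -0.61 for vnd, -2.32 for ind, -1.67 for Dr and -1.70 for SoxN.

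DESeq2 called 2 genes in Su(var)3-9 at St7-8 (34.8% of all genes), 3 and 1 between the alleles at NC14 and St7-8 (17.1% and 12.7%), 4 for the change of the Su140 effect (17.9%) and 1 for the stage change in Su113 minus that in Su(var)3-9 (20.6%). A minimum of 1 CPM in 8 libraries gave 2 in Su(var)3-9 at St7-8 (45.6% of all genes), 1 between the alleles at NC14 (10.6%) and 4 for the change of the Su140 effect (8.13%), for which no filter gave 2 (1.54%). The NC14 libraries alone gave 4 between the alleles (15.4%). The vnd stage change in Su140 passed with RLE and upper-quartile scaling (29% and 26.9% of all genes). It also passed with no filter (20.1%), the 1 CPM filter (35.1%) and DESeq2 (42.6%). Upper-quartile scaling gave 2 for the stage change in Su113 minus that in Su140 (6.61%). The replicate numbers did not pair the libraries (r of -0.50 to 0.33 over 28 pairs of groups, 3 of them over 0.1), and with the replicate block this count was 2 (4.23%), and vnd in Su140 at NC14 had -0.82 with an adjusted p of 0.0540. Without replicates 2 of wm4h and Su113 at St7-8, some calls for the stage change in Su113 minus that in Su140 were lost. So were those of vnd and D for the stage change in Su113, and Dr was called there instead, as a rise. In that fit D stood at 0.44 in Su113 at St7-8 and, in Su140, Dr at -0.037 and SoxN at -0.13. The stage change was 0.35 for ind in wm4h, 0.52 for ind in Su113 and 0.065 for SoxN in Su113. In Su(var)3-9 at NC14, ind was -0.0041 with RLE scaling and -0.0043 with DESeq2. Its stage change in Su113 was 0.026 with RLE, 0.025 with DESeq2 and 0.096 with the 1 CPM filter. Where not given with the setting, the cause was not tested.

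Against TMM, RLE scaling moved the median of all genes by up to 0.19 and upper-quartile scaling by up to 0.25. Over all genes, the count past the threshold ran from 22 with the covariate to 2531 with DESeq2 for Su140 at NC14 (1185 as reported), and from 0 with the covariate to 4225 with DESeq2 for Su(var)3-9 at St7-8 (3080 as reported). It ran from 6 to 796 for Su113 at NC14, 1 to 788 for Su(var)3-9 at NC14, 2 to 1476 for Su113 at St7-8 and 0 to 986 for Su140 at St7-8. The smallest count of any of the 5 genes in a library was 153, for Dr in Su140 NC14 replicate 1.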
